A study of Mus musculus with 10 samples.

Results

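The genes described here are 39 immediate early and heat shock genes, read in nonclassical monocytes, the patrolling monocyte subset, of mice with and without LAIR1. They were chosen by name from gene families, with earlier results of these data known. They comprise 26 immediate early genes (AP-1 factors, EGR, KLF and NR4A factors, MAP kinase phosphatases, and mRNA decay and anti-proliferative genes) and 13 genes of the heat shock response. The count table holds 52636 genes, and 34 of the 39 were abundant enough to test. Bulk RNA sequencing covered cells sorted from bone marrow of untreated mice, with 5 libraries of genotype LAIR1+/+ (WT) and 5 of genotype LAIR1-/- (LAIR1KO). LAIR1 is a collagen-binding receptor that dampens leukocyte activation. LAIR1KO is labelled by its genotype alone, with no driver or cell type restriction named, while strain, age and sex were not found in the sources used here. Whether the libraries of a genotype came from separate mice is not stated, so p-values measure the spread between libraries, which may be technical.

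Immediate early genes are transcribed within minutes of a signal from factors already present in the cell, and no protein synthesis is needed first. Many of them encode transcription factors, such as the FOS and JUN proteins that pair to form AP-1, while others encode phosphatases and RNA-binding proteins that end the signal. Heat shock genes encode chaperones that fold proteins, and heat shock factor 1 drives the inducible ones through heat shock elements in their promoters. In monocytes both groups also respond to handling, adhesion and warming.

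The libraries held 12106209 to 15356924 counts each. Levels are CPM, counts scaled to a fixed library size and adjusted between libraries with edgeR's TMM factors, and fold changes are LAIR1KO minus WT on the log2 scale ± SE. Tests are edgeR's two-sided quasi-likelihood tests, adjusted by the Benjamini-Hochberg method over 13469 genes, with a threshold of 0.05. Lair1 itself stood at 328 to 400 CPM in WT, against 0 to 10 counts in each LAIR1KO library. The 15 markers of nonclassical monocytes were detected in both groups and summed to 14144 to 17434 CPM in WT and 10923 to 15581 CPM in LAIR1KO, with 0 of 15 past the threshold (edgeR; 6 at an unadjusted p under 0.05, all lower). Other cell type markers differed between the groups: 10 myeloid progenitor markers summed to 541 to 1425 CPM in WT and 3232 to 6874 CPM in LAIR1KO (9 of 10 higher), and 10 mitosis markers to 219 to 311 and 466 to 909 CPM (10 of 10 higher). Resident macrophage markers summed to 1569 to 2116 CPM in WT and 867 to 1088 CPM in LAIR1KO (8 of 10 tested lower), and the 7 MHC class II genes to 8471 to 26239 and 4902 to 6213 CPM (7 of 7 lower). No gene of these marker lists was at 0 in every library. The part these differences play in any result below was not tested, and in bulk RNA fewer cells of a type and less RNA per cell cannot be told apart.

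The 2 stress-inducible HSP70 genes, Hspa1a and Hspa1b, had the largest decreases past the threshold among these genes and are near-identical neighbours, so their sequences are shown first. Each is a single-exon gene on the minus strand of chromosome 17 (GRCm38), Hspa1a at 34969190 to 34972156 and Hspa1b at 34956436 to 34959238. Their 250 bases upstream of the transcription start (RefSeq, GRCm38.p6) are chr17:34972157-34972406 for Hspa1a and chr17:34959239-34959488 for Hspa1b, both minus strand and written 5′ to 3′. Capitals mark a match to GAANNTTC, the head-to-head pair of the heat shock element's repeated units.
Hspa1a: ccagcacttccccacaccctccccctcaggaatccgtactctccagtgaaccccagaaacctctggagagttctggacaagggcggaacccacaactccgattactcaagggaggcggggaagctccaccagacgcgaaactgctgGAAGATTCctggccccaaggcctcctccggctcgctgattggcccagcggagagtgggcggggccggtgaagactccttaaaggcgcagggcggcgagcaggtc
Hspa1b: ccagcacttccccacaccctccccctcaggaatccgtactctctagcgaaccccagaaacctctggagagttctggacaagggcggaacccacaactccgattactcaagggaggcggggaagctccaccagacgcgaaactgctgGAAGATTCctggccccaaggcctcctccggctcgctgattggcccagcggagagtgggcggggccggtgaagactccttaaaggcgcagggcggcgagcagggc
The windows were identical at 247 of 250 positions (98.8%). Both carry the match with its first base at position -104 from the transcription start, and a CCAAT box on the other strand at -67. On either strand, GAANNTTC occurs in 6.69% of 32851 RefSeq promoters of this length and CCAAT in 33.85%.

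Upstream windows of the other members with a decrease past the threshold, the AP-1 genes Jun and Atf3, are shown because these factors bind a common kind of site. Jun (chromosome 4, 95049034 to 95052222, minus strand, single exon) has the window chr4:95052223-95052472. Atf3 (chromosome 1, 191170296 to 191218039, minus strand) has several starts, and the RefSeq window used is chr1:191183334-191183583. Capitals mark matches to TNACNTCA, a loose form of the ATF/CRE site, chosen after the sequences were seen.
Jun: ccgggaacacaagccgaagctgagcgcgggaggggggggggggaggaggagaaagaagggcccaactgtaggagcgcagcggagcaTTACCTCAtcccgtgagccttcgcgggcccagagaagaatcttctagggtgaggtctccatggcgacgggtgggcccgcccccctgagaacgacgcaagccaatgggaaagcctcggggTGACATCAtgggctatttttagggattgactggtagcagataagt
Atf3: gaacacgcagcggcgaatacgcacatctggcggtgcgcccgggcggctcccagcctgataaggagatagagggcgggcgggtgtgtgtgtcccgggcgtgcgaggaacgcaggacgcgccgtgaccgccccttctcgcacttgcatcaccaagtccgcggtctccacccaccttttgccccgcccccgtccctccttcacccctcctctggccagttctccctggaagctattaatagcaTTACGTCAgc
Jun carries this motif with first bases at -164 and -45, and Atf3 at -10. The motif occurs on either strand in 13.99% of all promoters searched and in 8 of the 30 members that have a RefSeq promoter entry. Members were counted if any listed start matched, and these 30 have 39 promoters. Counts of members and shares of promoters are thus unlike units, here and for the strict sites. The strict AP-1 site, TGANTCA, was found in 2 of those 30 members, Zfp36l1 and Bag3 (6.75% of all promoters). The strict cyclic AMP response element, TGACGTCA, was found in 2, Btg2 and Dusp1 (1.55%). Neither strict site was found in the Jun or Atf3 window. Each match is a stretch of letters only.

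Of the 34 genes tested, 4 were lower in LAIR1KO (11.8%) and 0 were higher, where the background over all 13469 genes was 1.68% lower and 5.11% higher (6.79% in either direction). Of the 34, 4 had a positive fold change with an unadjusted p under 0.05 in edgeR, all of them heat shock genes, and DESeq2 called 9 genes lower and 2 higher, Hsp90ab1 and Hspd1. Scaling by library totals turned the balance, with 2 lower (Atf3 and Hspa1b) and 3 higher (Hsp90ab1, Hspd1 and Hsph1). In both directions together, 19 of 34 members (55.9%) had an unadjusted p under 0.05, against 21.8% of all genes. The 4 lower genes were Jun, Atf3, Hspa1a and Hspa1b. Hspa1a and Hspa1b share most of their sequence and cannot be taken as separate measurements, so the 4 calls are not all separate. The number of lower genes depended on single libraries: it was 0 without LAIR1KO 2 and 2 without WT 2, WT 4, WT 5 or LAIR1KO 1, 4 or 5. The immediate early and heat shock genes differed in direction: 20 of 22 immediate early genes tested had a fold change below 0 (50.3% of all genes), with a median of -0.34, while 9 of 12 heat shock genes tested had one above 0 (49.7% of all genes), with a median of 0.15. All 15 nonclassical monocyte markers also had a fold change below 0, with a median of -0.26, so this lean was not particular to immediate early genes. That marker list is not free of early genes. Its members Klf2 (-0.77) and Cebpb (-1.03) also stand in the list of other immediate early genes used below, and Nr4a1 is of the NR4A family. The median over all genes was -0.002. Scaling by library totals, which moves that median to 0.13, left 19 of 22 immediate early genes below 0. RLE or upper-quartile scaling left 20 of 22 below 0 and turned the heat shock gene Dnajb1 to -0.01.

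**Figure D1:**
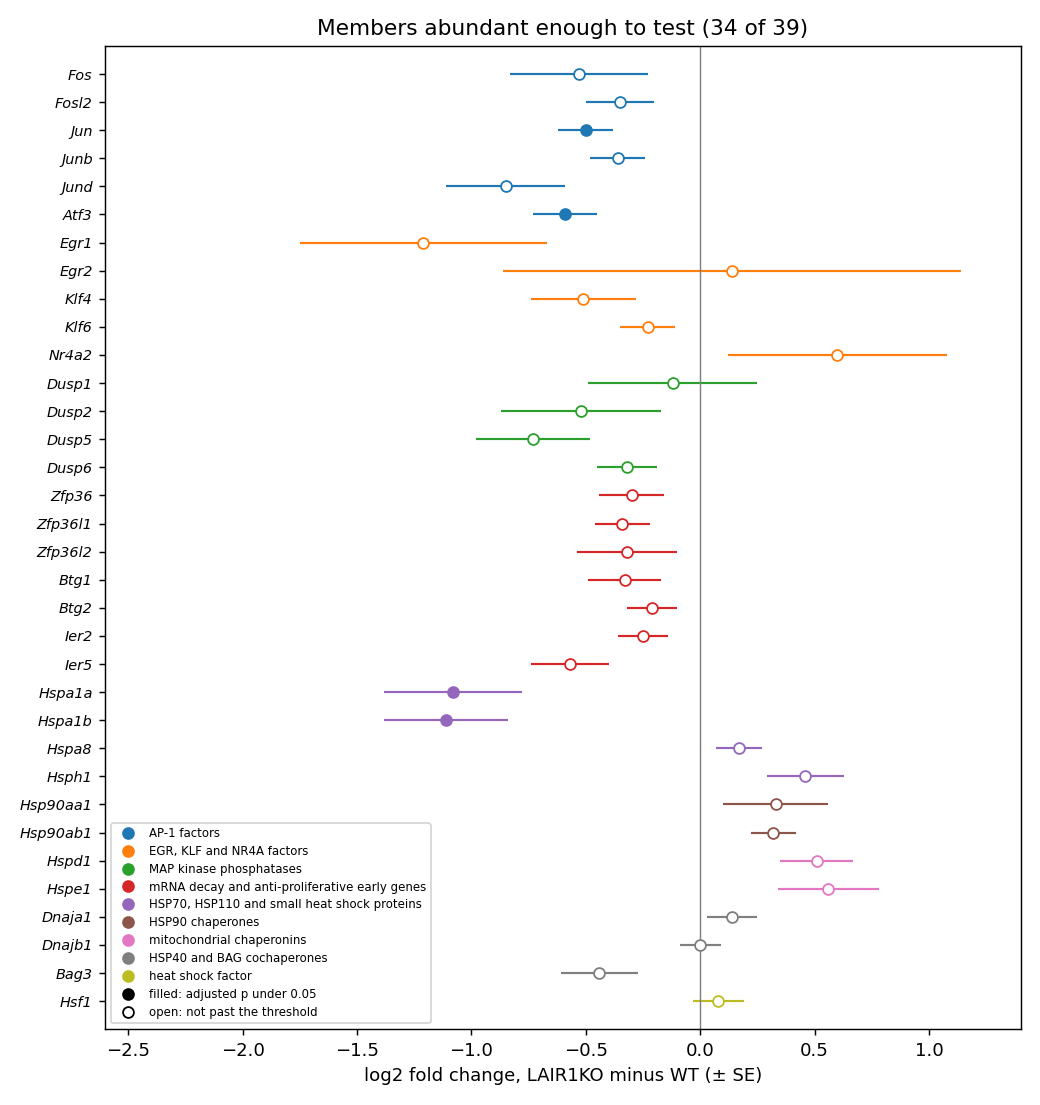
Log2 fold change (LAIR1KO minus WT) ± SE of the 34 members abundant enough to test, coloured by role, with filled points for an adjusted p under 0.05 in edgeR's test and open points for the rest. The 4 filled points, Jun, Atf3, Hspa1a and Hspa1b, all lie below 0, and 20 of the 22 immediate early genes in the upper part of the plot lie left of the zero line.

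Among the AP-1 factors, all 6 genes tested had a fold change below 0 under every scaling used, with a median of -0.52. Jun, the founding AP-1 subunit, stood at 126, 129, 131, 143 and 122 CPM in WT replicates 1 to 5 and at 113, 84.4, 72.4, 101 and 90.6 CPM in LAIR1KO replicates 1 to 5. Every LAIR1KO library was below the lowest WT library, and LAIR1KO 3 was the lowest of all. The means were 130 ± 7.96 and 92.2 ± 15.4 CPM (SD, n = 5 each). Jun fell by 0.50 ± 0.12 on the log2 scale (edgeR adjusted p = 0.0207). The call was lost without WT 4 (adjusted p = 0.0513) or LAIR1KO 2 (0.0543) and with scaling by library totals (0.0734).

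Atf3, a stress-induced factor that dimerizes with JUN proteins and dampens inflammatory genes, stood at 62.5, 51.5, 63.4, 53.3 and 71.5 CPM in WT and at 43.6, 33.2, 46.3, 45.0 and 32.7 CPM in LAIR1KO. The groups did not overlap here either, and LAIR1KO 2 and 5 were the lowest. Non-overlap in the lower direction was found for 3 of the 22 immediate early genes, Jun, Atf3 and Zfp36l1, where 2.06% of all genes showed it. Atf3 means were 60.5 ± 8.15 and 40.2 ± 6.63 CPM (SD, n = 5 each), and the gene fell by 0.59 ± 0.14 on the log2 scale (edgeR adjusted p = 0.0209). Leaving out WT 3 (adjusted p = 0.053), WT 5 (0.051) or LAIR1KO 2 (0.0518) ended the call.

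Junb, a JUN family subunit that often opposes Jun, was the AP-1 gene with the highest level per length (142 CPM per kb of exon in WT, against 40.9 for Jun). It stood at 329, 316, 347, 286 and 357 CPM in WT and at 282, 307, 267, 219 and 202 CPM in LAIR1KO. LAIR1KO 2 lay within the WT range and the other LAIR1KO libraries below it. The fold change of Junb was -0.36 ± 0.12 and did not pass the threshold in edgeR (adjusted p = 0.0979), while DESeq2 called it lower (0.0414). The antisense neighbour Prdx2, an antioxidant enzyme gene, overlaps 7.52% of the Junb exon bases and averaged 748 counts per library, against 3970 for Junb.

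The rest of the AP-1 genes tested did not pass in edgeR. Jund, the most constitutive JUN protein, ranged from 25.3 to 63.2 CPM in WT and from 14.8 to 30.7 CPM in LAIR1KO, with a fold change of -0.85 ± 0.26 (edgeR adjusted p = 0.0703). WT 3 held the highest Jund level and LAIR1KO 3 the lowest, and without WT 1 the gene passed (-0.97, adjusted p = 0.0465). Jund was also called lower by DESeq2 (adjusted p = 0.0164) and by edgeR with no filter (0.032). Fos, the classic partner of Jun, ranged from 12.5 to 32.4 and from 9.48 to 23.3 CPM (-0.53 ± 0.30, edgeR adjusted p = 0.325). Fos was highest in WT 1, WT 5 and LAIR1KO 1, so the groups overlapped widely. For Fosl2, a FOS family member, the ranges were 85.8 to 152 and 70.1 to 96.2 CPM (-0.35 ± 0.15, edgeR adjusted p = 0.205). Fosb, with 1 count over the 10 libraries, and Fosl1, with 59, were too low to test. Of the exon bases of Fosl1, 57.21% overlap the antisense gene Ccdc85b, so its few counts cannot be assigned to a strand.

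**Figure D2:**
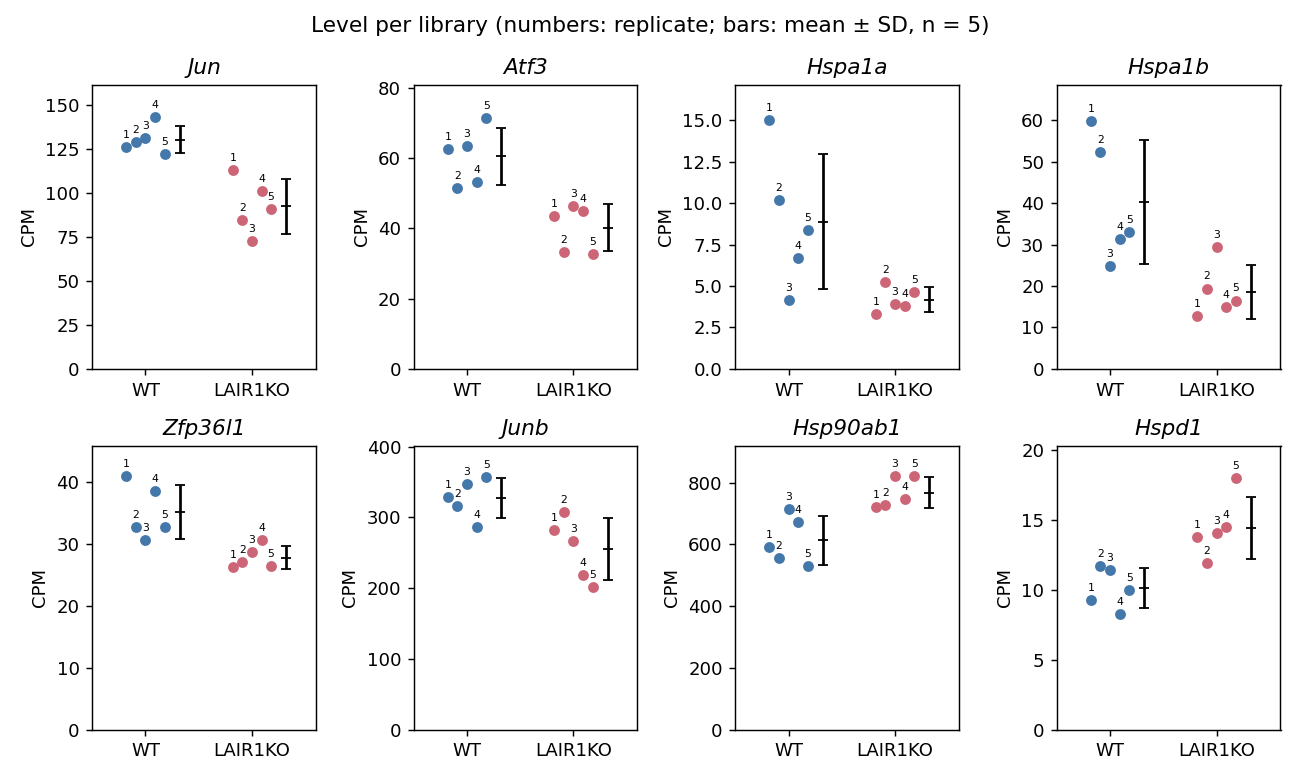
Level in CPM of 8 members in each library, with points numbered by replicate and bars giving the mean ± SD of each genotype (n = 5); every axis starts at 0. Jun, Atf3, Zfp36l1, Hsp90ab1 and Hspd1 show no overlap of the genotypes, while Hspa1a, Hspa1b and Junb do, and WT 1 and 2 carry the highest levels of the HSP70 pair.

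The EGR, KLF and NR4A factors, zinc finger and nuclear receptor genes of the early response, gave no call among the 5 tested (2 at an unadjusted p under 0.05 in edgeR, and 0 with DESeq2). Klf6, a zinc finger factor of myeloid activation, had the highest level per length of this group (114 CPM per kb in WT). It stood at 548, 417, 417, 543 and 571 CPM in WT and at 506, 410, 430, 417 and 360 CPM in LAIR1KO. The ranges overlapped over most of their length, and the fold change was -0.23 ± 0.12 (edgeR adjusted p = 0.282). Klf4, a factor of monocyte differentiation, ranged from 54.7 to 113 CPM in WT and from 34.7 to 76.1 CPM in LAIR1KO (-0.51 ± 0.23, edgeR adjusted p = 0.222). LAIR1KO 4 and 5 held its lowest levels.

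The EGR members and the NR4A members, Nr4a2 and Nr4a3, were near the lower limit of measurement. Egr1, the serum-response zinc finger factor, ranged from 0.128 to 3.11 CPM over all libraries (2 to 37 counts) with a fold change of -1.21 ± 0.54 (edgeR adjusted p = 0.213). Egr2 ranged from 0 to 4.27 CPM, was listed at 0 in WT 5 and LAIR1KO 3, and had a fold change of 0.14 ± 1.0 (edgeR adjusted p = 0.96). Nr4a2, an orphan nuclear receptor, ranged from 0.669 to 4.57 CPM (0.60 ± 0.48, edgeR adjusted p = 0.516) and was highest in LAIR1KO 2. Egr3, with 2 counts in all, and Nr4a3, with 1, were not tested. The SEs of these fold changes were 0.48 to 1.0, against 0.12 for Jun. Low levels did not extend to the whole NR4A family. Nr4a1, counted here among the nonclassical monocyte markers and not as a member, averaged 1451 CPM in WT and 1158 CPM in LAIR1KO (-0.33 ± 0.13, edgeR adjusted p = 0.177).

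The MAP kinase phosphatases remove phosphate from ERK, JNK and p38, and their own genes are induced by those kinases. All 4 had a fold change below 0 (3 of 4 with scaling by library totals), with a median of -0.42, and none passed (2 at an unadjusted p under 0.05 in edgeR; DESeq2 called Dusp5). Dusp6, specific for ERK, was the highest per length (88.9 CPM per kb in WT), with 335, 279, 299, 229 and 251 CPM in WT and 222, 215, 287, 208 and 184 CPM in LAIR1KO. LAIR1KO 3 lay inside the WT range and the other 4 below it (-0.32 ± 0.13, edgeR adjusted p = 0.177, or 0.0421 without LAIR1KO 3). Dusp5, a nuclear ERK phosphatase, ranged from 104 to 285 CPM in WT and from 83.3 to 131 CPM in LAIR1KO (-0.73 ± 0.25, edgeR adjusted p = 0.102). Its WT spread was wide, with WT 3 and 5 at 285 and 212 CPM.

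Dusp1, which acts on p38 and JNK, varied more within each genotype than between them. It stood at 65.8, 63.5, 95.6, 201 and 141 CPM in WT and at 198, 70.5, 51.3, 104 and 96.7 CPM in LAIR1KO. One library of each genotype, WT 4 and LAIR1KO 1, came near 200 CPM, and the fold change was -0.12 ± 0.37 (edgeR adjusted p = 0.891; 0.01 with scaling by library totals). Dusp2, an inducible nuclear phosphatase of immune cells, ranged from 13 to 55.7 and from 9.88 to 30.7 CPM (-0.52 ± 0.35, edgeR adjusted p = 0.433).

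The mRNA decay and anti-proliferative genes, grouped here with the early genes Ier2 and Ier5, shorten the life of early transcripts or slow division. The whole group ranged from 11.7 to 316 CPM per kb in WT. All 7 had a fold change below 0 (median -0.32), again with none past the threshold (3 at an unadjusted p under 0.05 in edgeR; DESeq2 called Ier5 and Zfp36l1). Ier2, a nuclear early response protein, was the highest of all members at 316 CPM per kb in WT. It stood at 458, 457, 518, 475 and 499 CPM in WT and at 462, 470, 421, 358 and 318 CPM in LAIR1KO. LAIR1KO 1 and 2 lay inside the WT range and LAIR1KO 3, 4 and 5 below it (-0.25 ± 0.11, edgeR adjusted p = 0.218).

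Zfp36l1, an RNA-binding protein that promotes decay of AU-rich mRNAs, stood at 40.9, 32.7, 30.6, 38.5 and 32.7 CPM in WT and at 26.2, 27.0, 28.6, 30.6 and 26.4 CPM in LAIR1KO. The groups did not overlap, but WT 3 and LAIR1KO 4 differed only beyond the printed digits, and the fold change of -0.34 ± 0.12 missed the threshold (edgeR adjusted p = 0.11). The lincRNA gene Gm26669 covers 55.92% of its exon bases on the other strand and averaged 5.8 counts per library, against 427 for Zfp36l1. Ier5, an early gene that also modulates heat shock factor 1, ranged from 141 to 288 CPM in WT and from 109 to 157 CPM in LAIR1KO (-0.57 ± 0.17, edgeR adjusted p = 0.0623, or 0.0275 without WT 1). As with Jund and Dusp5, WT 3 held its highest level.

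Zfp36, which encodes tristetraprolin, and its relative Zfp36l2 had fold changes of -0.30 ± 0.14 and -0.32 ± 0.22 (edgeR adjusted p = 0.235 and 0.43). The anti-proliferative genes Btg1 and Btg2, which recruit the CCR4-NOT deadenylase, had -0.33 ± 0.16 and -0.21 ± 0.11 (edgeR adjusted p = 0.271 and 0.268). These 4 genes had WT means of 432 to 751 CPM, and Btg2, with the most counts of all members, drew 7074 to 10875 counts per library.

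Read by library, the 22 immediate early genes were lower in their median in each LAIR1KO library than in any WT library. This median difference from the WT mean on the log2 CPM scale was -0.07 to 0.09 in the WT libraries and -0.23, -0.36, -0.53, -0.41 and -0.49 in LAIR1KO 1 to 5. LAIR1KO 1 was thus nearest to WT, with 16 of 22 genes below the WT mean, and LAIR1KO 3 farthest, with 20 of 22. LAIR1KO 3 had the lowest progenitor and mitosis marker sums of its group (3232 and 466 CPM) and LAIR1KO 5 the highest (6874 and 909 CPM). Within WT, replicate 3 held the top level of Jund, Klf4, Dusp2, Dusp5, Zfp36l2, Ier2 and Ier5 and the bottom level of Hspa1a and Hspa1b. These are counts over genes of the same libraries, which are not independent of each other.

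**Figure D3:**
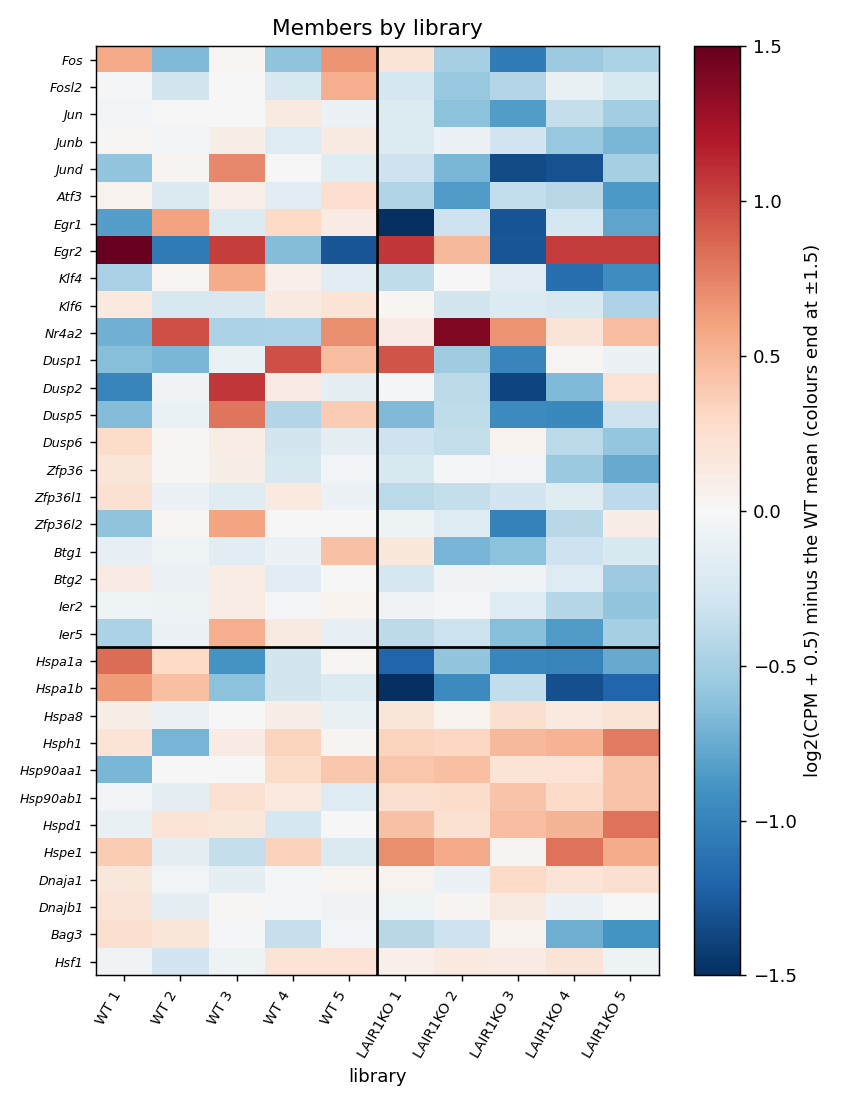
Colour map of the 34 members tested (rows) in the 10 libraries (columns), showing each log2 level minus the mean of the WT libraries, with blue for lower and red for higher; the horizontal line parts immediate early from heat shock genes. The LAIR1KO columns are mostly blue above the line, with medians from -0.53 to -0.23, and below it Hspa1a, Hspa1b and Bag3 are blue in most LAIR1KO libraries while most other heat shock rows are pale red.

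Hspa1a and Hspa1b encode the same inducible cytosolic HSP70, the chaperone most strongly raised by heat. Hspa1b stood at 59.9, 52.4, 24.8, 31.3 and 33.0 CPM in WT and at 12.7, 19.4, 29.3, 15 and 16.5 CPM in LAIR1KO. WT 1 and 2 were well above the other WT libraries, and LAIR1KO 3 lay inside the WT range with the other 4 below it. Its means were 40.3 ± 15 and 18.6 ± 6.46 CPM (SD, n = 5 each), and it fell by 1.11 ± 0.27 on the log2 scale (edgeR adjusted p = 0.0267). Hspa1a stood at 15, 10.2, 4.16, 6.69 and 8.37 CPM in WT and at 3.32, 5.25, 3.91, 3.82 and 4.64 CPM in LAIR1KO. WT 3 lay among the LAIR1KO libraries, 3 of which were below it and 2 above. The means were 8.88 ± 4.07 and 4.19 ± 0.755 CPM (SD, n = 5 each), and the gene fell by 1.08 ± 0.30 on the log2 scale (edgeR adjusted p = 0.0478).

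The antisense gene Gm20481 overlaps 19.01% of the Hspa1a exon bases and was at 0 counts. The deposited counts of this pair cannot be taken as separate measurements. Of the 50-base stretches of the Hspa1a transcript, 60.35% also occur in another gene, and of those of Hspa1b, 62.31%. Hspa1a took 11.8% to 21.9% of the pair's counts in the 10 libraries. With both summed, the pair stood at 74.9, 62.5, 28.9, 38.0 and 41.4 CPM in WT and at 16.0, 24.6, 33.2, 18.8 and 21.2 CPM in LAIR1KO. The sum again placed LAIR1KO 3 above WT 3 and the other 4 LAIR1KO libraries below all WT libraries, with a fold change of -1.11 ± 0.26 (edgeR adjusted p = 0.0222). The Hspa1a call was lost on leaving out any library but WT 3 (adjusted p up to 0.114), and that of Hspa1b without WT 1 or 2 or LAIR1KO 1, 2, 4 or 5 (up to 0.0721). Hspa1a was also not called with library totals, with voom without or with quality weights, or with GC and length trends removed. With the replicate number as a block, neither gene was called.

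The other HSP70-type genes did not pass. Hspa8, the constitutive HSP70, ranged from 32.3 to 37.5 CPM in WT and from 36.3 to 41.5 CPM in LAIR1KO (0.17 ± 0.10, edgeR adjusted p = 0.356). Hsph1, the HSP110 exchange factor of HSP70, ranged from 50.4 to 104 and from 102 to 141 CPM (0.46 ± 0.17, edgeR adjusted p = 0.127), with WT 2 well below the rest. Hspb1, the small heat shock protein HSP27, had 0 counts in every library, which at a limit of 3 counts allows 0.192 to 0.252 CPM. Its pseudogene Hsp25-ps1, which holds 48.83% of its 50-base stretches, was at 0 as well.

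The cytosolic HSP90 genes were at very unlike counted levels. Hsp90ab1, the constitutive form, had the highest counted level per length of the heat shock members (205 CPM per kb in WT, against 1.21 for the inducible form Hsp90aa1). It stood at 592, 555, 715, 673 and 531 CPM in WT and at 722, 729, 821, 746 and 822 CPM in LAIR1KO. Every LAIR1KO library exceeded every WT library, although LAIR1KO 1 passed WT 3 only narrowly, and the fold change of 0.32 ± 0.10 missed the threshold (edgeR adjusted p = 0.0709). Scaling by library totals, DESeq2 and voom with quality weights each called it higher, with adjusted p-values of 0.00769, 0.0344 and 0.0464, as did the edgeR test without WT 3 (0.0484). Hsp90aa1 ranged from 2.68 to 6.27 CPM in WT and from 5.37 to 6.46 CPM in LAIR1KO (0.33 ± 0.23, edgeR adjusted p = 0.446). Of the 50-base stretches of Hsp90aa1, 47.49% also occur in another gene, so its low level cannot be read as low expression.

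Hspd1 and Hspe1 encode HSP60 and HSP10, the chaperonin and co-chaperonin that fold proteins inside mitochondria, and they lie head to head on chromosome 1 (Hspd1 at 55077835 to 55088243, minus strand; Hspe1 at 55088132 to 55091307, plus strand). The bases chr1:55088053-55088082 (RefSeq, GRCm38.p6, plus strand) lie upstream of Hspe1, and are shown for their repeated heat shock units, in capitals.
Hspe1: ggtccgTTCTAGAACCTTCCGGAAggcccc
They begin 95 bases before the Hspe1 start at 55088148, and RefSeq gives Hspd1 starts on either side of them, at 55088243 and 55087932. Hspd1 and Hspe1 were the members with a match to the 3-unit heat shock element (GAANNTTC, any NN and a further GAA), which 0.47% of all promoters hold on either strand. Their matches are this same stretch read on opposite strands, so they are not separate elements. For Hspd1 the stretch lies upstream of the start at 55087932 but downstream of that at 55088243. Neither gene passed in the edgeR test, while DESeq2 and scaling by library totals called Hspd1 higher (adjusted p = 0.0322 and 0.0279).

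Hspd1 stood at 9.28, 11.7, 11.4, 8.28 and 9.99 CPM in WT and at 13.8, 11.9, 14.1, 14.5 and 18 CPM in LAIR1KO. All LAIR1KO libraries were above all WT libraries, with LAIR1KO 2 just above WT 2 (0.51 ± 0.16, edgeR adjusted p = 0.076). Non-overlap in the higher direction held for Hspd1 and Hsp90ab1 among the 12 heat shock genes and for 5.61% of all genes. Its processed pseudogene Hspd1-ps3 drew as many counts as the gene itself, on average 184 per library against 169. The pseudogene passed the threshold (0.75 ± 0.15, edgeR adjusted p = 0.00937), and the sum of both, formed after the values were seen, was higher by 0.64 ± 0.13 (edgeR adjusted p = 0.0118). Per length, Hspe1 and Hspd1 stood at 4.07 and 3.83 CPM per kb in WT, and with shared sequence in both their order cannot be read from these values. Hspe1 was at 7.78, 5.22, 4.46, 7.59 and 4.96 CPM in WT and at 9.84, 8.94, 6.03, 10.7 and 8.84 CPM in LAIR1KO. LAIR1KO 3 lay inside the WT range and the other 4 above it (0.56 ± 0.22, edgeR adjusted p = 0.155).

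Among the cochaperones, Dnajb1, the HSP40 partner of inducible HSP70, showed the smallest difference of all members. It stood at 124, 99.0, 110, 107 and 105 CPM in WT and at 104, 112, 119, 102 and 108 CPM in LAIR1KO. The ranges overlapped almost fully, both means were 109 CPM, and the fold change was 0.00 ± 0.09 (edgeR adjusted p = 0.995). Bag3, a nucleotide exchange factor of HSP70 in selective autophagy, ranged from 56.2 to 84.5 CPM in WT and from 38.3 to 74.1 CPM in LAIR1KO (-0.44 ± 0.17, edgeR adjusted p = 0.154). Without LAIR1KO 3, its highest LAIR1KO library, it passed (-0.59, adjusted p = 0.0333). Dnaja1, a further HSP40, ranged from 35.9 to 44.7 and from 37.2 to 48.3 CPM (0.14 ± 0.11, edgeR adjusted p = 0.491).

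Hsf1, the master factor of the heat shock response, stood at 104, 88.4, 102, 124 and 124 CPM in WT and at 113, 119, 117, 123 and 102 CPM in LAIR1KO. The LAIR1KO libraries lay inside the WT range (0.08 ± 0.11, edgeR adjusted p = 0.706). Its activity is set mainly through the protein, which these data do not measure.

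Several heat shock genes share sequence with other genes. Over 10% of 50-base stretches were shared with another gene for 8 members, all of them heat shock genes (11.9% to 62.31%), and these 8 stood at 0 to 14.4 CPM per kb in WT. The other 31 members shared at most 3.44% and ranged from 0.00221 to 316 CPM per kb, so low levels were not limited to genes with shared sequence. Hsp90aa1, with 47.49% shared, averaged 74.6 counts per library, and its pseudogene Gm12346 averaged 51.7. How reads that match several genes were counted was not found in the sources used here, so the low levels of Hspa8, Hsp90aa1, Hspd1 and Hspe1 cannot be read as low expression. The part of counting in these levels was not tested.

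**Figure D4:**
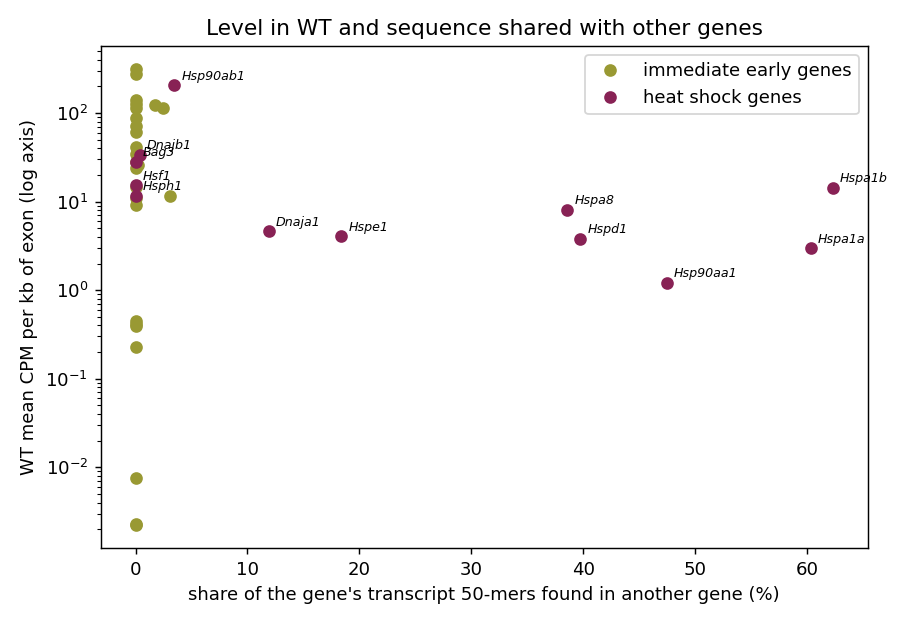
WT mean level per kb of exon (log axis) against the share of each gene's 50-base transcript stretches that occur in another gene, for the members with any WT count, olive for immediate early and purple for heat shock genes, the latter named. The genes over 10% on the horizontal axis all lie at or below 14.4 CPM per kb, while Hsp90ab1, at 3.44%, lies at 205.

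Other genes of the same pathways were counted from lists drawn up by function, with earlier results of these data known. Of 35 other immediate early and early response genes tested, 28 had a fold change below 0 (24 with scaling by library totals), with a median of -0.21, and 1 was lower (2.86%, near the 1.68% of all genes): Batf3, an AP-1 family factor of dendritic cells, fell by 1.28 ± 0.29 on the log2 scale, from 8.77 to 3.62 CPM (edgeR adjusted p = 0.0206). Batf3 was not called without WT 4 (adjusted p = 0.0526) or LAIR1KO 4 (0.0508). DESeq2 called 5 of them. Of 35 genes of the MAP kinase cascade and the factors it activates, 0 passed in edgeR (2 at an unadjusted p under 0.05), with a median of -0.09, or 0.05 with scaling by library totals. The 2 heat shock factors and regulators tested gave no call (0 at an unadjusted p under 0.05).

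The other cytosolic chaperones leaned the other way. Of 40 tested, 7 were higher (17.5%, against 5.11% of all genes), 0 were lower, and 29 had a fold change above 0, with a median of 0.20. The 4 with the smallest p were subunits of the TRiC chaperonin, which folds actin and tubulin. Cct3 rose from 134 to 198 CPM (0.57, edgeR adjusted p = 0.00306) and Tcp1 from 126 to 177 CPM (0.49, 0.00654). Cct5 rose from 251 to 348 CPM (0.47, edgeR adjusted p = 0.00778) and Cct6a from 168 to 238 CPM (0.50, 0.00833). These 4 kept their calls on leaving out any 1 library, and the list's count of 7 became 4 without WT 3 or without LAIR1KO 4. Of 10 other mitochondrial chaperones, 9 had a fold change above 0 (median 0.21) and Trap1, the mitochondrial HSP90, rose from 67.8 to 107 CPM (0.66 ± 0.11, edgeR adjusted p = 0.00345). In the same libraries the mitosis marker sum was higher in every LAIR1KO library than in any WT library; its part in these chaperone levels was not tested.

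**Figure D5:**
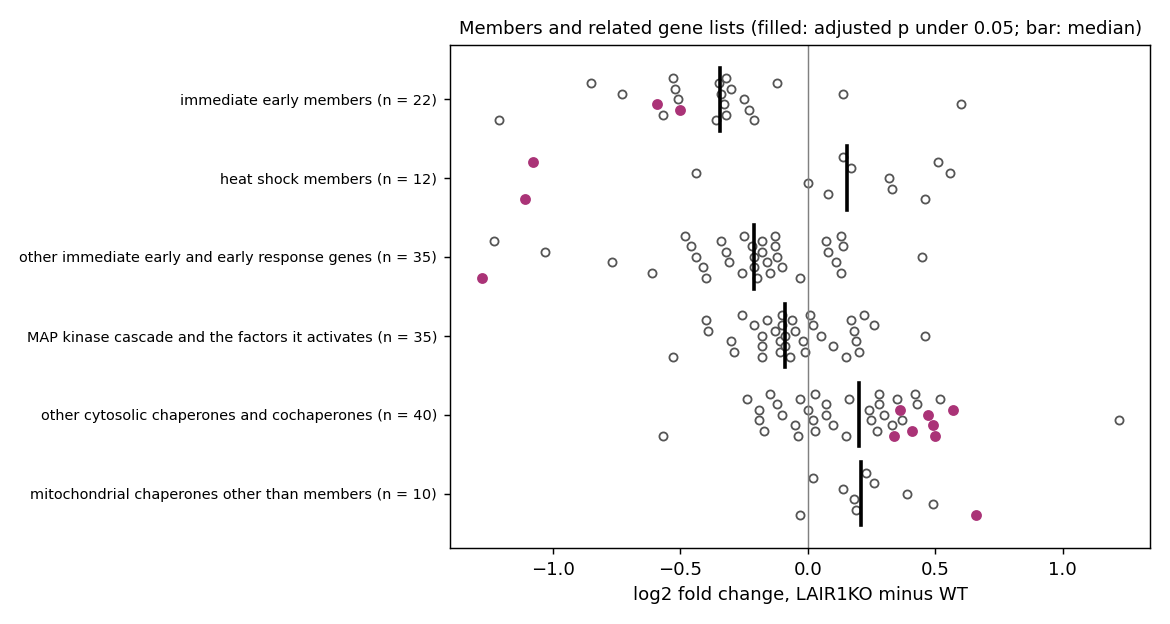
Log2 fold change (LAIR1KO minus WT) of each gene tested in the immediate early and heat shock members and in 4 related gene lists, 1 point per gene, filled where the adjusted p is under 0.05, with a black bar at each median. Immediate early lists have medians of -0.34 and -0.21, and the chaperone lists outside the members 0.20 and 0.21, with 7 filled points to the right for the cytosolic chaperones.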

How the data were processed

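Nonclassical monocytes were sorted from bone marrow, and RNA was prepared with a low-input kit, per the labels. The authors deposited 1 table of raw read counts (52636 Ensembl genes, 10 libraries). Per the submitters' processing notes, GSNAP was used with genome build GRCm38.p5. The counting tool, annotation, read filters and strand setting were not given in the sources used here, so reads of a gene and its antisense partner cannot be told apart. Gene names, coordinates and exon lengths came from GENCODE M21 (52489 identifiers matched), and promoters from RefSeq on GRCm38.p6, which held 30 of the 39 members.

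Counts were tested in R 4.3.3 with edgeR 4.0.16: filterByExpr (minimum count 10, minimum total 15), TMM, quasi-likelihood test of LAIR1KO against WT over all samples with no covariate, Benjamini-Hochberg adjustment. Motifs were searched on both strands over 250 upstream bases, and shared sequence was taken as exact 50-base matches between transcripts. Total counts ran from 12106209 to 15356924, and replicates differed beyond sampling noise (chi-square per degree of freedom 15.8 to 80.8). The fit was tested on simulated data.

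The members and lists were chosen with earlier results of these data known. Every member is named; those past the threshold and the most abundant per length of each role have all values printed, as do Hspd1, Zfp36l1 and Dusp1, added after their values were seen. In related lists, up to 4 genes past the threshold with the smallest p are named. Promoters of the HSP70 pair followed the rule for gene pairs; those of Jun, Atf3 and Hspe1 were added after values were seen. Alternatives were RLE, upper-quartile and library-total scaling, no filter, a filter of 1 CPM in 5 libraries, DESeq2 1.42.0, limma 3.58.1 voom without and with quality weights, the replicate number as a block, removal of GC and length trends, and leaving out each library. Added after seeing the data were LAIR1KO 4 and 5 or WT 1 and 4 left out together and the summed gene pairs.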

Additional observations from a re-analysis of the deposited data

Results flagged for a closer look

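In 2 of the 68 groups of 5 libraries examined, 1 library stood far from the others by Dixon's test at the 95% level, and chance gives this in about 1 group in 20. Fosl2 stood at 152 CPM in WT 5, where the next WT library had 104 CPM, and the gap was 0.727 of the group's range (critical value 0.71). Btg1 stood at 811 CPM in WT 5, next to 575 CPM, a gap of 0.845 of the range. Neither gene passed the threshold with or without WT 5.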

How the results depend on the processing

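Over 34 members and the alternatives run, 672 of 750 results kept their direction and side of the threshold, 36 lost a call, 22 gained one and 20 changed sign. Only the 4 members called could lose a call, so the 36 are not to be read against 750. In the 10 runs without 1 library, Jun lost its call in 2, Atf3 in 3, Hspa1a in 9 and Hspa1b in 6. In the other alternatives, Jun lost it in 3 of 12, Atf3 in 3 of 12, Hspa1a in 7 of 12 and Hspa1b in 3 of 13. The cause of each change was not tested. The 4 lower members became 2 with library totals, 7 with no filter, 9 with DESeq2, 0 to 5 on leaving out 1 library (0 without LAIR1KO 2), 0 without LAIR1KO 4 and 5 together and 1 without WT 1 and 4 together. The 0 higher members became 3 with library totals, 2 with DESeq2, 1 with voom and quality weights and 0 to 1 on leaving out 1 library (1 without WT 3). The 7 higher cytosolic chaperones became 16 with library totals, 11 with DESeq2, 4 to 8 on leaving out 1 library (4 without WT 3 or without LAIR1KO 4), 4 without LAIR1KO 4 and 5 and 3 without WT 1 and 4.

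Sign changes were limited to Egr2, Dusp1 and Dnajb1. Egr2 ran from -0.18 to 1.27 on leaving out 1 library and was -0.28 without LAIR1KO 4 and 5. Dusp1 was 0.01 with library totals, 0.02 with voom and quality weights, 0.06 without WT 1 and 4, and -0.50 to 0.19 on leaving out 1 library. Dnajb1 was -0.01 with RLE scaling, upper-quartile scaling, DESeq2 and the GC and length correction, and -0.03 to 0.05 on leaving out 1 library.

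Same-numbered libraries of the genotypes showed no common deviation over all genes (correlations -0.078 to 0.047, with 0 of 5 correlated best with their own number). The highest correlations with another number were also low, at 0.055 to 0.124. Whether same-numbered libraries share a preparation is not stated, and this check cannot exclude it. With the replicate number as a block, 1 member (Jun) was lower, and calls over all genes went from 914 to 600. Over all genes, calls numbered 376 without LAIR1KO 4 and 5, 338 without WT 1 and 4, and 535 to 1170 on leaving out 1 library. With library totals, 90.1% of calls were higher, against 75.3%; DESeq2 made 1516 calls. The Lair1 fold change stayed between -11.49 and -9.94.

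Counts were low for Egr1, Egr2 and Nr4a2, at 0 to 68 per library, and too low to test for 5 members. The level of Hspa1a rests on 49 to 179 counts. The groups differ in progenitor, mitosis and macrophage markers, which cannot be told apart from genotype here.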
